A study of Mus musculus with 15 samples.

Results

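The genes described here are the 5 NF-kappaB subunits and 5 of their inhibitors, chosen by symbol, and all 10 were present among the 17594 genes of the deposited table. The subunits are Rel, Rela, Relb, Nfkb1 and Nfkb2. The inhibitors are the cytoplasmic IkB genes Nfkbia, Nfkbib and Nfkbie, the nuclear IkB gene Nfkbiz, and Tnfaip3, which encodes the ubiquitin-editing enzyme A20. All 10 members passed the filter on low values in the fit over 11314 genes.

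RNA was measured by sequencing in 2 kinds of CD4 T cell sorted from the spleen of C57BL/6 mice, regulatory T cells (Treg), which are defined by Foxp3, and conventional cells (Tconv). The knockout (KO) groups came from mice with a conditional Hpgd allele crossed to a Foxp3-Cre-YFP line, in which Cre is made where Foxp3 is expressed, so Tconv of these mice are not the cells in which Cre is driven. The control groups are labelled wild-type (WT), and the labels do not say whether the controls carried Foxp3-Cre-YFP. Hpgd encodes the dehydrogenase that inactivates prostaglandin E2. Treg gave 4 libraries from WT and 4 from KO, and Tconv 3 from WT and 4 from KO. Age, treatment and pooling of animals are not given in the labels, so p-values measure the spread between these libraries, which may be technical in part.

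NF-kappaB is a family of transcription factors that bind DNA as dimers. Rel (c-Rel), Rela (p65) and Relb carry a transactivation domain, whereas Nfkb1 and Nfkb2 encode the precursor proteins that are processed to p50 and p52. In resting cells IkB proteins hold the dimers in the cytoplasm. Antigen receptor, costimulatory and cytokine signals activate kinases that mark IkB for degradation, and the dimers freed in this way induce their own inhibitors, Nfkbia and Tnfaip3 among them. In T cells c-Rel is known for its part in the development of Treg, and A20 for restraining the signal.

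Promoter sequences are shown for members whose transcripts were higher in Treg than in Tconv in 1 or both genotypes (below), with Rela as a member that did not pass. The sequences are from RefSeq on GRCm38.p6, which held windows for 7 of the 10 members (10 windows, 1 per start site). Relb, Nfkb1 and Nfkbiz had no entry. The 250 bases before each start were searched on both strands for the kappaB consensus, the sequence NF-kappaB dimers bind, and overlapping matches were merged. Capitals mark the matches. For every gene but Nfkb2, stretches that GENCODE vM21 annotates as exon were left out, so lengths differ. The first Nfkb2 window is annotated as exon over all of its 250 bases, and for this gene a match is shown with a short stretch on each side.
Nfkbia, chr12:55492648-55492897, minus strand: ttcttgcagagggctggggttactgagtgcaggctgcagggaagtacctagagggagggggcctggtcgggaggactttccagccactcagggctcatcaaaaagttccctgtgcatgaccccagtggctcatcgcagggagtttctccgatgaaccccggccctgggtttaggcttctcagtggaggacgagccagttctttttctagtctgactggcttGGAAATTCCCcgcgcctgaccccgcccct
Nfkbie, chr17:45555450-45555699, plus strand: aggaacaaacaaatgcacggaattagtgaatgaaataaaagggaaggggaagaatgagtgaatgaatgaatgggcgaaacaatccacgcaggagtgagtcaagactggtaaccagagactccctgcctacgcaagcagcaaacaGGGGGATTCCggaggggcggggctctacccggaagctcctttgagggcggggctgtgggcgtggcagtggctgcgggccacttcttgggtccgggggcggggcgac
Rel, chr11:23770971-23771219, minus strand: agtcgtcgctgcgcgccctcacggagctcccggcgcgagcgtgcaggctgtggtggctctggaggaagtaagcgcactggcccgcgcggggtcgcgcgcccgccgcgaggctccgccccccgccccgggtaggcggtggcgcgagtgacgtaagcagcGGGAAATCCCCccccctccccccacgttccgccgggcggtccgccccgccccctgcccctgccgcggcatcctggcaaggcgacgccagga
Tnfaip3, chr10:19015411-19015547, minus strand: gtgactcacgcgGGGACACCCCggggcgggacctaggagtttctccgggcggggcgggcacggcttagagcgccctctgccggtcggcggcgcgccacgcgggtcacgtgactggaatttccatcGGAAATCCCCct
Nfkb2, chr19:46304689-46304717, plus strand: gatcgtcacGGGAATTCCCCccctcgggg
Rela, chr19:5637291-5637482, plus strand: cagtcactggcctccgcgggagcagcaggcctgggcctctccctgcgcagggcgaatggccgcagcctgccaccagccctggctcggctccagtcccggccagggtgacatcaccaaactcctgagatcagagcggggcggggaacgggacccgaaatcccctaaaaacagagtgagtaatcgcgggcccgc
The consensus was present in 5 of the 7 genes, namely Nfkb2, Nfkbia, Nfkbie, Rel and Tnfaip3. In the Nfkbia window the match began 29 bases before the start of the transcript. Nfkb2 held a match at each of 3 start sites, with 2 at the first, and Tnfaip3 held 2 at one start site and 0 at the other. No match stood in the windows of Rela and Nfkbib. The same search found the consensus in 3.90% of 32851 windows in the table and in 5.54% of the 8614 tested genes with a window. The AP-1 site TGANTCA, bound by Fos and Jun dimers, occurred in windows of Nfkb2, Nfkbie and Tnfaip3. It was in 6.75% of all windows and in 5.04% of the tested genes with a window. The cAMP response element TGACGTCA was in windows of 0 members, in 1.55% of all windows and in 3.22% of the tested genes with a window.

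Positions are those of GENCODE vM21 on GRCm38, the assembly that the build mm10 names, and all 10 genes are annotated as protein coding. Tnfaip3 is at chr10:19000910-19015657 on the minus strand, Nfkbia at chr12:55489410-55492647 on the minus strand and Rel at chr11:23736847-23770970 on the minus strand. Nfkbiz lies at chr16:55811375-55838899 on the minus strand, Nfkb1 at chr3:135584655-135691547 on the minus strand, and Nfkbie at chr17:45555703-45563169 on the plus strand. Nfkb2, at chr19:46304320-46312385, and Rela, at chr19:5637483-5648130, are both on the plus strand. Relb, at chr7:19606217-19629438, and Nfkbib, at chr7:28758251-28767512, are both on the minus strand.

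Libraries held between 2.64 and 11.1 M reads (mega-reads) assigned to genes. Treg KO libraries were the shallowest as a group, at 3.89 ± 0.896 M reads (SD, n = 4) against 8.35 ± 1.48 M reads in Treg WT (n = 4). Foxp3, the defining gene of Treg, averaged 4502 (WT) and 4046 (KO) in Treg, and 17.1 and 40.8 in Tconv. Hpgd gave 1 read in all 4 Treg WT libraries together and 0 elsewhere, so its deletion could not be checked at this depth. The Y-linked gene Ddx3y was at 0 in every KO library and between 1154 and 1520 in the WT libraries, while Xist averaged 15567 in Treg KO and 1.84 in Treg WT. The labels give no sex. Sex follows genotype completely, and in the comparisons of KO with WT the 2 cannot be told apart. Summed levels of 10 B cell markers ran from 530 to 780 in Treg WT and from 859 to 1909 in Treg KO, beside 47.9 to 54.3 and 67.2 to 171 in the Tconv groups of WT and KO. Cd74 made up most of these sums, whereas Ms4a1 stayed at or below 6.69 in every library.

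Levels of different members are compared as normalized read counts (the deposited values, gene counts divided by a size factor per library) per kilobase of the longest transcript. Nfkbia was the highest member in Treg WT at 1204 ± 59.9 per kilobase (SD, n = 4), and its 4 libraries did not overlap with those of Nfkb1, the next, at 766 ± 34.6. Rela followed at 407 ± 6.48. Nfkb2 at 277 ± 10.6 and Nfkbiz at 252 ± 7.55 overlapped with each other. The order then went on through Tnfaip3 at 233 ± 15.3, Relb at 147 ± 8.54 and Nfkbie at 142 ± 9.94, of which Relb and Nfkbie overlapped. Nfkbib, at 105.2 ± 21.0, and Rel, at 41.9 ± 1.73, were the lowest. Nfkbia, Nfkb1 and Rela were the top 3 in this order in 3 of the 4 groups. In Treg KO the place of Rela was shared, since Tnfaip3 stood at 415 ± 92.3 and Rela at 388 ± 70.8 with overlapping libraries. Rel had the lowest mean per kilobase in all 4 groups, although in Treg KO 3 it was at 65.5, above Nfkbib at 52.3.

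**Figure D1:**
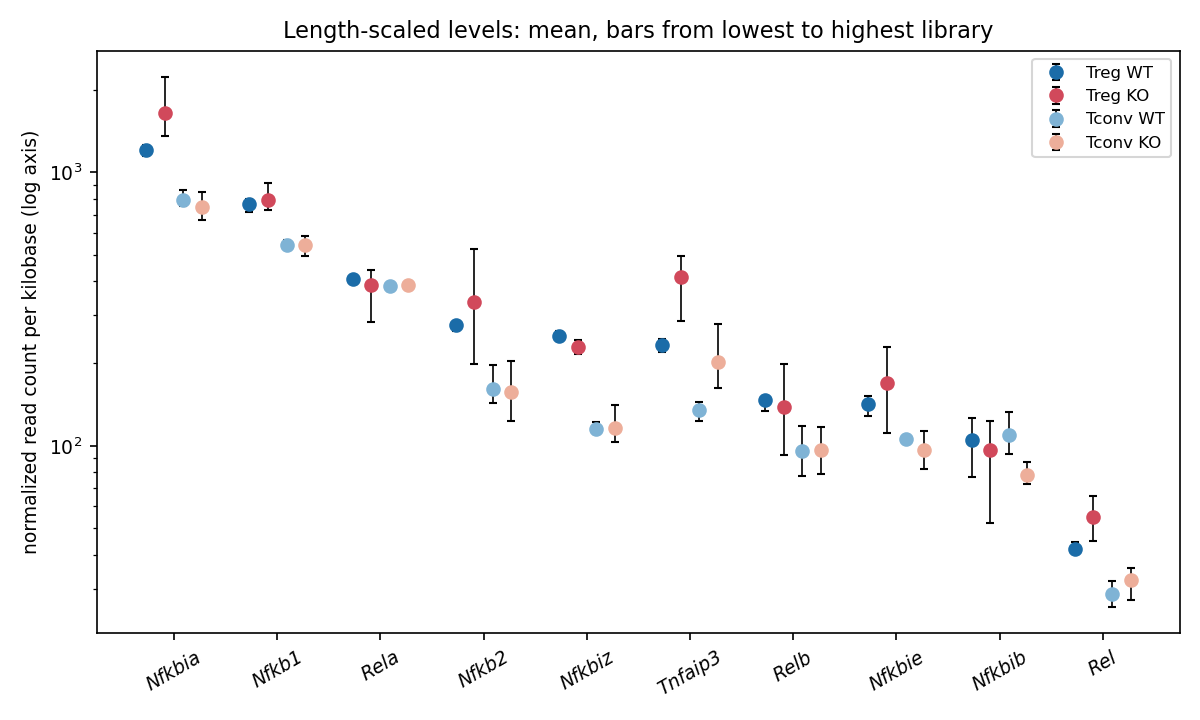
Normalized read count per kilobase of transcript (log axis) for the 10 members in the 4 groups. Points are group means and bars run from the lowest to the highest library. By mean, Nfkbia is highest and Rel lowest in every group, and the Treg KO bars are the longest for most members.

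Most members stood higher in Treg than in Tconv, in WT and in KO alike. In WT mice 7 of the 10 members were higher in Treg (limma, adjusted p under 0.05, called higher or lower below) and 0 were lower. Differences are on the scale of log2(value + 1), given with their standard error. Among all genes tested 10.0% were called higher and 8.06% lower, 18.1% in all. In KO mice 7 members were higher and 0 lower, where 15.8% of all genes were called higher and 15.6% lower, 31.4% in all. The 2 comparisons share no libraries. Nfkb1, Nfkb2, Nfkbia, Nfkbiz, Rel and Tnfaip3 passed in both, Relb in WT and Nfkbie in KO. The median log2 difference over the members was 0.58 in WT, beside -0.02 over all genes, and 0.76 in KO, beside -0.01. Libraries of the 2 cell types did not overlap for 9 members in WT, with Treg above Tconv in each (20.6% of all genes were higher without overlap), and for 5 members in KO (12.2% of all genes). In bulk RNA, more cells with a transcript and more transcript per cell cannot be told apart. Of 5 tested B cell markers 3 were higher in Treg in WT and 5 in KO. Of 6 tested markers of CD8 T and NK cells 4 were lower in Treg in each genotype, namely Prf1, Eomes, Klrb1c and Nkg7. Sums over the list of 8 ran from 242 to 292 in Treg WT and from 795 to 993 in Tconv WT. Cd8b1 was alike, from 54.1 to 66.9 in Treg WT and from 47.4 to 70.1 in Tconv WT. Cd8a and Ncr1 stayed at or below 6.46 in every library. The part of other cell types in the members' differences was not tested.

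Nfkbiz, which encodes a nuclear IkB that can promote as well as restrain transcription, had the largest difference between the cell types in WT among the members. Its values were 1038, 1016, 1017 and 1082 in the 4 Treg WT libraries and 465, 454 and 501 in the 3 Tconv WT libraries. They were 969, 935, 892 and 1000.3 in Treg KO and 582, 447, 457 and 426 in Tconv KO. Every Treg library stood above every Tconv library. The log2 difference was 1.13 ± 0.09 (adjusted p = 4.2e-07) in WT and 0.997 ± 0.08 (adjusted p = 5.4e-07) in KO, which is a fold of 2.19 and 1.996.

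**Figure D2:**
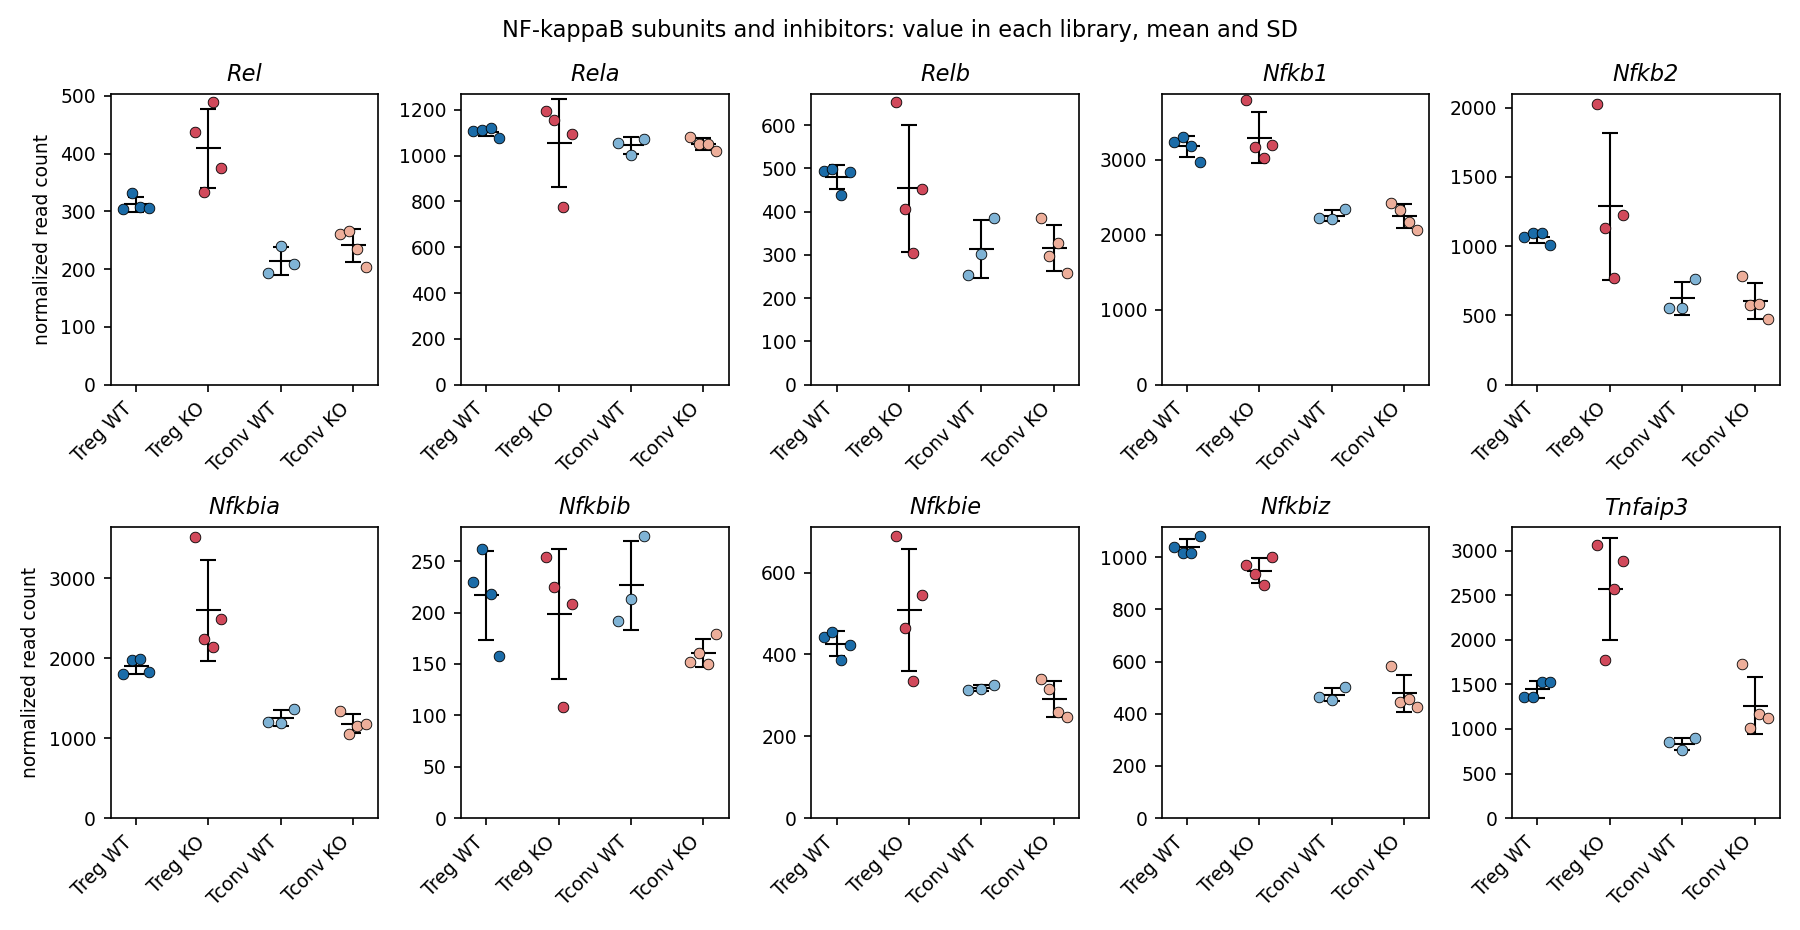
Normalized read count (linear axes from 0) of the 10 members in each library of the 4 groups; points are libraries, the long dash is the mean and the bar is 1 SD. Nfkbiz separates Treg from Tconv in every library, Rela lies between 1004.5 and 1197 in all libraries but 1 from Treg KO at 773, and Nfkb2 spreads from 767 to 2024 within Treg KO.

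Among the subunits, Nfkb1 measured 3238, 3305, 3189 and 2973 in Treg WT and 2218, 2205 and 2344 in Tconv WT. In KO it measured 3797, 3175, 3023 and 3191 in Treg and 2428, 2329, 2174 and 2060.3 in Tconv. The cell types did not overlap in either genotype, with log2 differences of 0.49 ± 0.08 (adjusted p = 0.00044) and 0.55 ± 0.08 (adjusted p = 5.8e-05) (limma). Rel, the c-Rel gene, was 304, 332, 308 and 306 in Treg WT against 193, 239.8 and 209 in Tconv WT. Its difference was 0.55 ± 0.13 (adjusted p = 0.0058) in WT and 0.75 ± 0.12 (adjusted p = 0.00019) in KO, again without overlap. Nfkb2, the p52 precursor gene of the non-canonical branch, was 1065, 1095, 1093 and 1008 in Treg WT and 556, 550.2 and 762 in Tconv WT, a log2 difference of 0.79 ± 0.24 (adjusted p = 0.029). In KO the Nfkb2 difference was 1.03 ± 0.22 (adjusted p = 0.0024), and the lowest Treg library, at 767, fell below the highest Tconv library, at 787. Nfkb2 shares 299 exonic bases on the opposite strand with Psd, whose mean value was 70.1, and 531 with AC114539.1. Counting by strand is not stated, so reads from such pairs cannot be told apart.

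Relb, the partner of p52, was 493, 499, 439 and 491 in Treg WT and 253, 303 and 386 in Tconv WT, a log2 difference of 0.63 ± 0.20 (adjusted p = 0.041). In KO the values were 653, 406, 304 and 453 in Treg and 385, 297, 327 and 258 in Tconv, the groups overlapped, and the difference was 0.48 ± 0.19 (adjusted p = 0.064). Relb thus lay near the threshold in both genotypes. The WT calls of Relb and Nfkb2 were lost when any 1 of the Treg WT libraries, Tconv WT 1 or Tconv WT 2 was left out, with adjusted p between 0.056 and 0.20 for Relb and between 0.051 and 0.12 for Nfkb2. The log2 differences moved less, to between 0.71 and 0.82 for Nfkb2 and between 0.61 and 0.68 for Relb, except that Relb was at 0.49 without Tconv WT 1. Without Treg KO 3 or Tconv KO 1 the Relb difference in KO passed instead, with adjusted p of 0.0093 and 0.033, and it passed in edgeR (0.040) and DESeq2 (0.026). It also passed with reads thinned to one depth (0.043), with a GC trend removed from every library (0.0030) and with adjacent sample numbers as a random block (0.029).

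Rela, the p65 gene, did not pass in either genotype, although in KO it did with the GC trend removed (0.16, adjusted p = 0.028). Its values were 1109, 1111, 1119 and 1079 in Treg WT and 1055, 1004.5 and 1074 in Tconv WT. In KO they were 1197, 1155, 773 and 1095 in Treg and 1082, 1052, 1049 and 1019 in Tconv. The 4 Treg WT libraries were all above the 3 Tconv WT libraries, but by little, and the log2 differences of 0.08 ± 0.11 (adjusted p = 0.69) in WT and -0.01 ± 0.10 (adjusted p = 0.93) in KO did not pass. The coefficient of variation of Rela in Treg WT was 1.59%, the smallest of any member in that group.

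Of the cytoplasmic inhibitors, Nfkbia (IkB alpha) measured 1806, 1973, 1990.4 and 1832 in Treg WT and 1201, 1185 and 1365 in Tconv WT. In KO mice it measured 3519, 2247, 2139 and 2489 in Treg and 1342, 1056, 1153 and 1184 in Tconv. Treg libraries lay above Tconv libraries throughout. The log2 difference was 0.61 ± 0.13 (adjusted p = 0.0046) in WT and 1.11 ± 0.12 (adjusted p = 8.9e-06) in KO, a fold of 1.52 and 2.16. Nfkbie (IkB epsilon) was 441, 456, 387 and 422 in Treg WT and 312, 315 and 326 in Tconv WT, without overlap, but its difference of 0.42 ± 0.18 (adjusted p = 0.12) did not pass. In KO, with 689, 465, 334 and 546 in Treg and 341, 316, 260.2 and 247 in Tconv, 3 of 4 Treg libraries were above every Tconv library and the difference of 0.77 ± 0.17 (adjusted p = 0.0025) passed. In a fit of only the WT groups the WT difference of Nfkbie passed too (adjusted p = 0.00035).

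Nfkbib (IkB beta), by contrast, overlapped between the cell types in both genotypes. In WT mice its values were 229.6, 261, 218 and 158 in Treg against 192, 213 and 275 in Tconv. In KO mice they were 254, 224, 108 and 209 in Treg against 152, 161, 149.8 and 179.5 in Tconv. The log2 difference between Treg and Tconv was -0.07 ± 0.24 (adjusted p = 0.89) in WT and 0.24 ± 0.22 (adjusted p = 0.44) in KO (limma). Without Treg KO 3, in which Nfkbib rested on 50 reads, the KO difference was 0.51 with an adjusted p of 0.024. Nfkbib shares 42 exonic bases on the opposite strand with Sirt2, whose mean value was 390, and 314 with Ccer2.

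Tnfaip3 (A20) differed between the cell types and between the genotypes. The 4 Treg WT libraries gave 1362, 1361, 1529 and 1522 and the 3 Tconv WT libraries 849, 761 and 896. The 4 Treg KO libraries gave 3067, 1772, 2570.4 and 2883 and the 4 Tconv KO libraries 1727, 1009.6, 1173 and 1125. Tconv WT was lowest, every Treg KO library was above every other library, and the Tconv KO library at 1727 was also above all 4 Treg WT libraries. Between Treg and Tconv the log2 difference was 0.79 ± 0.18 (adjusted p = 0.0051) in WT and 1.03 ± 0.16 (adjusted p = 0.00023) in KO.

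In Treg, KO against WT, 3 of the 10 members were higher and 0 were lower, namely Tnfaip3, Nfkbia and Rel. In this comparison 10.4% of all genes were called higher and 11.1% lower, 21.5% in all. The median log2 difference over the members was 0.12, beside -0.00 over all genes. For Tnfaip3 the difference was 0.81 ± 0.16 (adjusted p = 0.0045), a fold of 1.75. Nfkbia rose by 0.42 ± 0.12 (adjusted p = 0.026), a fold of 1.34, with all 4 KO libraries above all 4 WT libraries. Rel was 438, 334, 489 and 376 in Treg KO, all above the highest Treg WT library at 332, although by as little as 334 against 332. The Rel difference was 0.37 ± 0.12 (adjusted p = 0.035), a fold of 1.30. This comparison shares libraries with both comparisons of the cell types, so its values are not independent of them.

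The other 7 members did not pass in Treg KO against WT. The log2 differences were -0.09 ± 0.10 (adjusted p = 0.57) for Rela, -0.13 ± 0.19 (adjusted p = 0.64) for Relb, 0.05 ± 0.08 (adjusted p = 0.67) for Nfkb1 and 0.19 ± 0.22 (adjusted p = 0.57) for Nfkb2 (limma). Among the inhibitors they were -0.17 ± 0.22 (adjusted p = 0.61) for Nfkbib, 0.21 ± 0.17 (adjusted p = 0.39) for Nfkbie and -0.13 ± 0.08 (adjusted p = 0.28) for Nfkbiz. Nfkbiz was the 1 member whose KO libraries, from 892 to 1000.3, all lay below the WT libraries, from 1016 to 1082. Non-overlap in the lower direction held for 13.04% of all genes and in the higher direction for 13.18%.

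**Figure D3:**
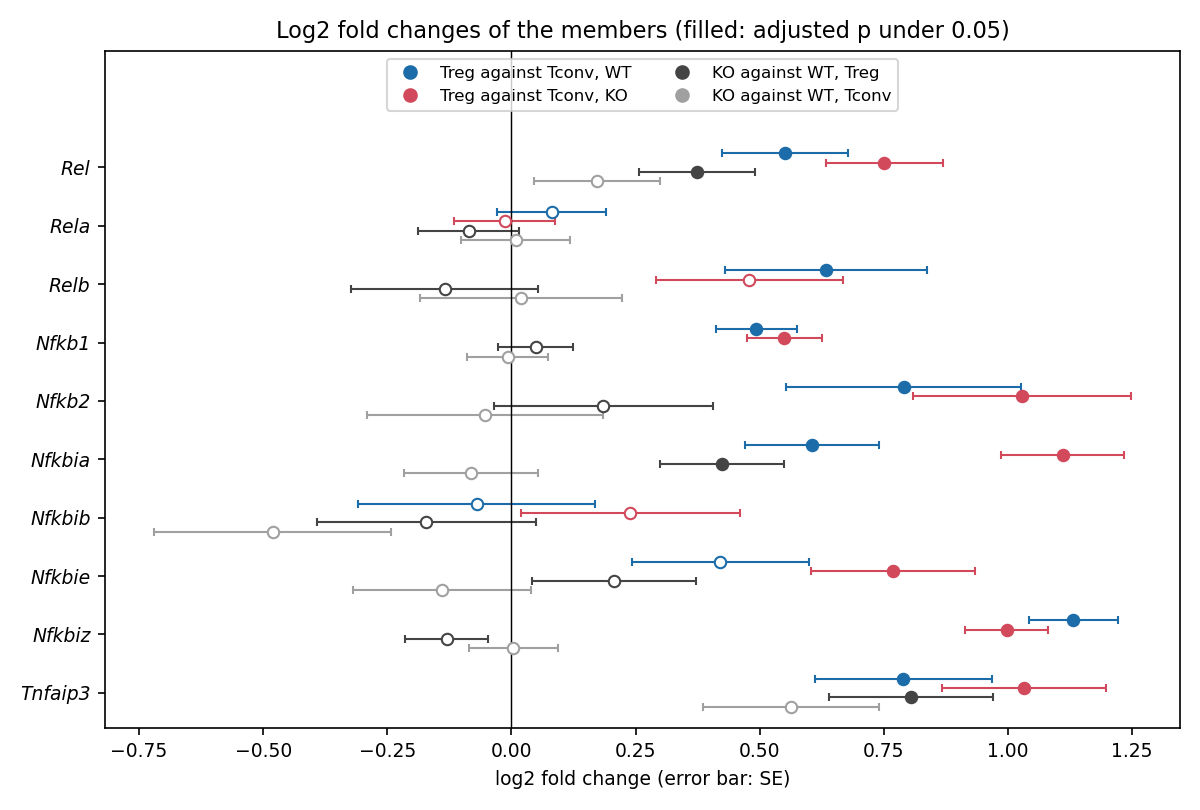
Log2 fold change with its standard error for each member in 4 comparisons; filled points passed at an adjusted p under 0.05 in limma, open points did not. The Treg against Tconv points lie right of 0 for most members in both genotypes, whereas for KO against WT in Treg Rel, Nfkbia and Tnfaip3 are the 3 filled points and for Tconv there is none.

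The spread within Treg KO was wide, and 2 libraries stood apart. The coefficient of variation ran from 1.59% (Rela) to 19.996% (Nfkbib) over the members in Treg WT and from 4.90% to 41.2% in Treg KO, where Nfkb2 was highest. Treg KO 1 was the highest of its group for 8 of the 10 members (for 25.9% of all genes), with a median log2 deviation of 0.47 from the mean of the other 3 libraries. Treg KO 3 was the lowest for 8 of the 10 (34.1% of all genes), with a median of -0.45. It was also the shallowest library of the series. In Nfkb2 the deviations were 0.99 for Treg KO 1 and -0.88 for Treg KO 3, whereas in Rel, the member with the lowest GC content, Treg KO 3 was the highest library at 0.36.

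**Figure D4:**
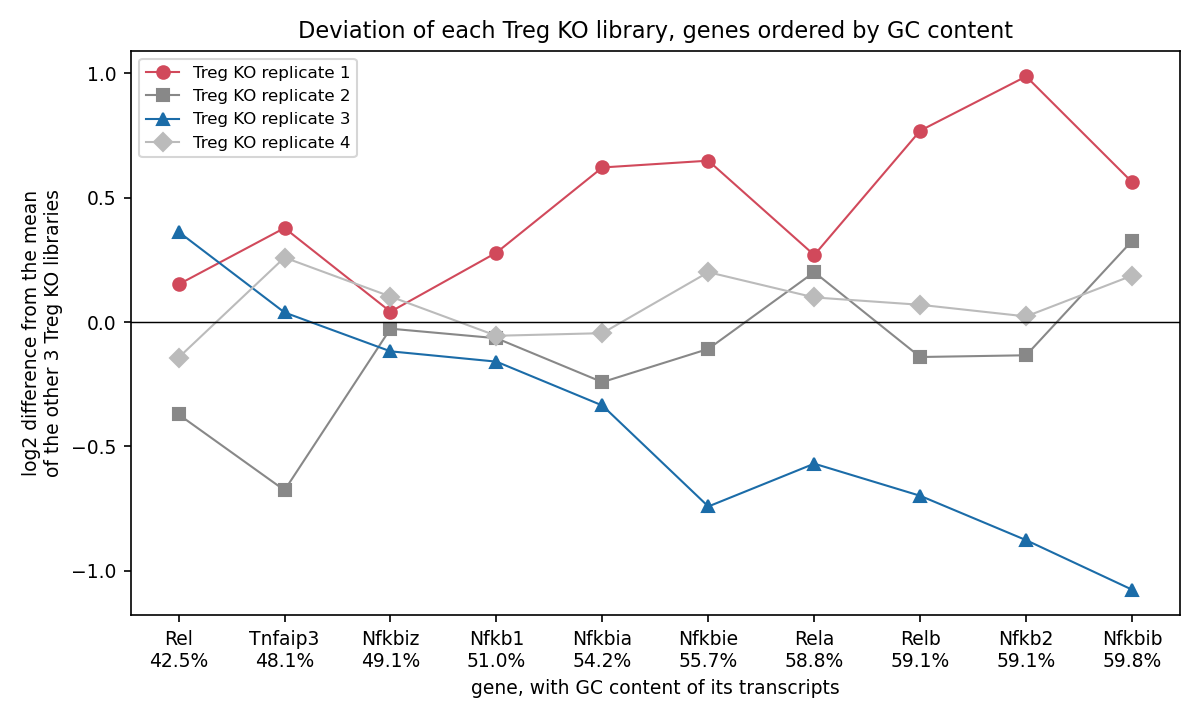
Log2 deviation of each Treg KO library from the mean of the other 3 for each member, with genes ordered from the lowest to the highest GC content of their transcripts. Treg KO 3 goes from 0.36 in Rel (42.5% GC) to -1.08 in Nfkbib (59.8% GC), and Treg KO 1 lies above 0 for all 10 members.

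GC content moved with the genotype difference in Treg over all genes. The median log2 difference, KO against WT, was 0.20 among the GC-poorest of 5 equal bins of genes and -0.33 among the GC-richest. The trend was not limited to this comparison, since the same bins gave 0.0995 and -0.15 in Tconv, KO against WT. Between Treg and Tconv they gave 0.10 and -0.16 in KO, and -0.0079 and 0.0072 in WT. Treg KO 3 deviated by 0.29 and -0.52 in the same bins and Treg KO 1 by -0.06 and 0.21. After removal of a GC trend from every library, 5 members were higher in Treg KO. Of 11221 genes 770 were then called higher and 760 lower, 13.6% in all. Tnfaip3 and Nfkbia still passed, Rela (0.29, adjusted p = 0.0021), Nfkb2 (0.58, 0.039) and Nfkbie (0.42, 0.044) now passed, and Rel did not (0.19, 0.24). Rela, Relb and Nfkbib changed sign under this correction, at 0.29, 0.25 and 0.25.

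Some of these calls were lost when 1 library was left out, which also leaves fewer libraries in the fit. The Rel call was lost without any 1 of the Treg WT libraries, Treg KO 1 or Treg KO 3, with adjusted p between 0.051 and 0.099. The Rel difference was then 0.36 to 0.40 without a Treg WT library, 0.34 without Treg KO 1 and 0.28 without Treg KO 3. Nfkbia lost its call without Treg WT 1 (0.40, adjusted p = 0.072) or Treg WT 4 (0.41, 0.066). Without Treg KO 1, its highest library, the Nfkbia difference dropped to 0.27 and passed (0.041). Tnfaip3 kept its call without any 1 library, with log2 differences between 0.71 and 0.97 and adjusted p up to 0.017. Without both Treg KO 1 and Treg KO 3, a choice made after seeing the data, 0 members passed in limma and 2, Tnfaip3 and Nfkbia, had an unadjusted p under 0.05 (edgeR and DESeq2 were not run on this choice). The difference was then 0.65 for Tnfaip3 (adjusted p = 0.057), 0.32 for Nfkbia (0.050) and 0.18 for Rel (0.36). Leaving out these libraries leaves 2 in the KO group. B cell markers, depth and sex moved with genotype as given above. Their part in the result was not tested.

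In Tconv, KO against WT, 0 members passed in limma, edgeR or DESeq2, and 1 member, Tnfaip3, had an unadjusted p under 0.05. Among all genes 0.681% were called in limma. The Tnfaip3 difference was 0.56 ± 0.18 (adjusted p = 0.20), with all 4 KO libraries above all 3 WT libraries. Tconv KO 1, at 1727, was the highest of them, and it was highest in its group for 8 of the 10 members (for 33.5% of all genes). Without it the difference was 0.40. The same library had the highest Treg marker sum among the Tconv KO libraries, at 8801 in a range from 2512. Most of it came from Il2rb (4122) and Ikzf2 (3195). Ctla4, Ikzf4 and Tnfrsf18 were also highest there, but Foxp3, at 47.2, was below Tconv KO 2 at 69.5, and Il2ra, at 55.9, was the lowest. Its sum of CD8 T and NK cell markers was highest too, at 2131 in a range from 731, mostly from Nkg7 (914) and Eomes (778). Gzmb and Prf1 were also highest there, whereas Klrb1c (19.2) and Cd8b1 (54.2) were lowest and Cd8a and Ncr1 were at 0. The part of these markers in the result was not tested. Nfkbib had all 4 KO libraries below all 3 WT libraries, with a difference of -0.48 ± 0.24 (adjusted p = 0.44). Over all genes 7.79% were higher and 8.54% lower without overlap, so 1 member each way is near the background. The other 8 members lay between -0.14 ± 0.18 for Nfkbie and 0.17 ± 0.13 for Rel. The difference between Treg and Tconv in the KO effect passed for 0 members in limma, edgeR and DESeq2, and 0.150% of all genes were called. Nfkbia had the smallest p, the 1 unadjusted p under 0.05 among the members, with an interaction of 0.50 ± 0.18 (adjusted p = 0.44). For Tnfaip3 the interaction was 0.24 ± 0.24 (adjusted p = 0.82), so the larger value in Treg than in Tconv was not shown to differ.

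The balance of inhibitors and subunits was described as the summed level per kilobase of Nfkbia, Nfkbib and Nfkbie over that of the 5 subunits. This ratio ran from 0.847 to 0.912 in Treg WT and from 1.02 to 1.21 in Treg KO, without overlap. It ran from 0.818 to 0.848 in Tconv WT and from 0.696 to 0.835 in Tconv KO, so the 2 Tconv groups overlapped. Nfkbia alone made up 83.0% (WT) and 86.2% (KO) of the summed IkB level in Treg, and 78.6% and 81.1% in Tconv (group means). The level of Rel per kilobase, divided by that of Rela, was 0.103 ± 0.0041 (WT) and 0.148 ± 0.056 (KO) in Treg, and 0.0747 ± 0.011 and 0.0835 ± 0.0084 in Tconv. Treg KO 3 was at 0.230, and the other Treg KO libraries lay between 0.105 and 0.133. With the GC trend removed, the log2 difference of KO against WT in Treg was 0.19 for Rel and 0.29 for Rela. The ratios themselves were not computed on values with the GC trend removed. These ratios concern transcripts, and no protein was measured.

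The signalling complexes that act on IkB are assembled by adaptor proteins, kinases and ubiquitin ligases downstream of the receptors. The counts of this and the next 3 lists stand beside the shares of all genes called, which were 10.0% higher and 8.06% lower between the cell types in WT, 15.8% and 15.6% in KO, and 10.4% and 11.1% in Treg KO against WT. Of 28 such genes, 6 were higher and 3 lower in Treg than in Tconv of WT mice, and 7 and 8 in KO mice. The median log2 difference of the list was 0.02 in WT and -0.10 in KO. Birc3, a ubiquitin ligase of the receptor complexes, measured 964 ± 61.2 in Treg WT (SD, n = 4, as in all Treg values of these lists) and 701 ± 15.3 in Tconv WT (SD, n = 3), a log2 difference of 0.46 ± 0.10 (adjusted p = 0.0030). Ripk2 and Birc2 were higher in Treg in both genotypes. In Treg KO against WT, 5 of the 28 were higher and 4 lower. The linear ubiquitin ligase subunits Rbck1 and Rnf31 fell by 0.50 ± 0.11 and by 0.42 ± 0.09 on the log2 scale (adjusted p = 0.0058 and 0.0067). Tab2 rose by 0.33 ± 0.08 and Birc2 by 0.38 ± 0.10. In this list and those below, the differences are from the main fit alone. How they change with the GC trend removed or with a library left out was not examined.

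Other inhibitors of the pathway, 18 genes apart from the members, were higher in Treg for 5 genes in WT and 6 in KO and lower for 0 in both. Their medians were 0.18 and 0.15. N4bp1, a binder of ubiquitin chains, measured 788 ± 45.2 in Treg WT and 485 ± 1.68 in Tconv WT, a log2 difference of 0.70 ± 0.10 (adjusted p = 0.00011). Tnip1, a binding partner of A20, differed by 0.70 ± 0.14 (adjusted p = 0.0019). Between the genotypes of Treg 1 of these genes was higher and 2 were lower. Tax1bp1, another A20 partner, rose by 0.26 ± 0.09, whereas Pdlim2 fell by 0.44 ± 0.14 and Nlrc5, which is best known as an activator of MHC class I genes, fell by 0.38 ± 0.09 on the log2 scale.

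Genes known as NF-kappaB targets, 30 tested of 32 listed, included 10 that were higher and 3 lower in Treg of WT mice and 17 and 3 in KO mice, with medians of 0.48 and 0.61. They included Il2ra, the IL-2 receptor chain that also defines Treg, at 4042 ± 145 in Treg WT and 55.8 ± 10.5 in Tconv WT. Lta, Tnfrsf9 and Tnfrsf4 were higher in Treg as well, with log2 differences of 1.67 ± 0.14, 3.60 ± 0.35 and 2.76 ± 0.34 in WT. Several of these genes mark Treg, and no list here separates targets from Treg markers. In Treg of KO mice, against WT, 3 of the 30 were higher and 0 lower, and the share that was higher is near that of all genes. Bcl2l1, a survival gene, measured 203 ± 9.55 in Treg WT and 296 ± 52.9 in Treg KO, a difference of 0.53 ± 0.17 (adjusted p = 0.039). The adhesion gene Vcam1 went from 9.71 ± 4.25 to 32.0 ± 20.1, and Bcl2a1d, which has near-identical copies that can share reads, from 82.0 ± 10.7 to 204 ± 103.

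Receptors and ligands that act through NF-kappaB, 25 tested of 27, included 11 higher and 4 lower in Treg of WT mice and 15 and 4 in KO mice, with medians of 0.48 and 0.92. Il1rl1, the IL-33 receptor, measured 364 ± 36.8 in Treg WT and 8.21 ± 4.76 in Tconv WT. For Tlr7, a receptor for RNA, the same groups gave 212 ± 37.7 and 33.8 ± 4.36. Cd40lg, the ligand of CD40, was lower in Treg, at 123 ± 12.4 against 549 ± 56.4. Between KO and WT Treg 3 were higher in KO, also near the share of all genes, and 1 was lower. Il18r1, a chain of the IL-18 receptor, measured 1170 ± 196 in Treg WT and 2595 ± 902 in Treg KO, a difference of 1.11 ± 0.18 (adjusted p = 0.00097). Tlr2 and Cd40lg rose by 0.80 ± 0.27 and 0.33 ± 0.11, and the TNF receptor gene Tnfrsf1a fell by 0.43 ± 0.11 on the log2 scale. Some genes, Lta among them, stand in both of the last lists. In Tconv KO against WT and in the interaction 0 genes of these 4 lists passed in limma. In the order of the lists above, 1, 0, 1 and 2 genes had an unadjusted p under 0.05 in Tconv KO against WT, and 0, 0, 0 and 4 in the interaction.

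Immediate early and isolation stress genes respond quickly to the handling of cells, as Nfkbia, Nfkbiz and Tnfaip3 can. Their summed level ran from 15262 to 20366 in Treg of WT mice and 13084 to 18555 in Treg of KO mice, and in Tconv from 16136 to 18787 and from 15283 to 15754. Of 25 tested, 3 were higher and 0 lower in Treg than in Tconv of WT mice (Dusp1, Nr4a1 and Dusp5). In KO mice 7 were higher, Dusp1, Ier5 and Dusp5 among them, and 3 were lower, with Dusp2 among these. In Treg KO against WT 1 was higher (Ier5) and 2 were lower (Dusp2 and Dnajb1). Of all genes, 10.0% were called higher and 8.06% lower in WT, 15.8% and 15.6% in KO, and 10.4% and 11.1% in Treg KO against WT. The counts in WT and in Treg KO against WT were near or below these shares, and the 7 higher in KO were above. The part of handling in the members' differences was not tested.

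Likeness of profile was described for the 8 members that passed in any comparison, as the root mean square difference between log2 profiles over the 15 libraries, each centred on its own mean. A smaller value means a closer profile. Rel was closest to Sla (0.12), Plxnc1 (0.12) and Birc2 (0.13), and Nfkb1 to Fam53b (0.079), Gltscr1l (0.088) and Rab11fip1 (0.089). Relb was closest to Zc3h12a (0.14), Fbxl19 (0.14) and Jak3 (0.15), and Nfkb2 to Rarg (0.14), Gata3 (0.16) and Kdm2b (0.16). For the inhibitors the nearest genes were Zfp36l1 (0.15), Gata3 (0.15) and Fas (0.16) for Nfkbia, and Zc3h12a (0.16), Limk1 (0.17) and Traf1 (0.17) for Nfkbie. Nfkbiz was closest to Lrig1 (0.12), Gm16907 (0.12) and Plp2 (0.12), and Tnfaip3 to Crebl2 (0.18), Dynlt3 (0.19) and Crem (0.22). The nearest other member had rank 4 for Nfkbie (Nfkb1), rank 6 for Nfkb2 (Nfkbia), rank 12 for Nfkbia (Nfkb2) and rank 129 for Rel (Nfkb1), with ranks from 17 to 211 for the other 4. The libraries share the groups, the depths and the GC trend described above, so a close profile is a description of these 15 libraries.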

How the data were processed

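The values are a normalized signal, gene counts that the authors divided by a size factor per library, deposited as 1 table of 17594 genes and 15 libraries. Within a library every value is a whole multiple of 1 step. Whole reads could therefore be computed, and 100.0% of values came out whole (tolerance 0.001). TopHat and the build mm10 stand in the labels per the submitters' processing notes, whereas the version, the counting and the annotation were not given in the sources used here. Per the labels' protocols, sorted cells were lysed in Qiazol and an Illumina TruSeq kit was used. One read was worth between 0.527 and 2.15 units, and depth ran from 2.64 to 11.1 M reads (mega-reads).

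A gene was tested where 3 or more libraries reached a value of 10, which left 11314 genes. They were fitted as log2(value + 1) in limma 3.58.1 (R 4.3.3), with 4 group means over 15 libraries and a mean-variance trend. The 5 contrasts were tested two-sided, and Benjamini-Hochberg adjusted p-values under 0.05 within a contrast were called. Replicate numbers follow the sample records and pair nothing. The labels name no shared animals, and libraries entered as independent. The alternatives were edgeR 4.0.16 (quasi-likelihood) and DESeq2 1.42.0, both on the recovered reads, a pseudocount of 8 or 0.1, no filter, TMM factors, reads thinned to the shallowest library, removal of a GC trend per library (lowess span 0.3, 11221 genes), a fit of only the groups compared, adjacent sample numbers as a random block (estimated correlation 0.2476), and leaving out each library. The scripts were tested on simulated data.

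GENCODE vM21 gave positions, lengths and GC contents (17341 of 17594 symbols matched), and RefSeq gave promoters. All members are named. From each pathway list up to 4 genes per contrast with the smallest p among those that passed could be named, and for likeness the 3 nearest genes. Values of some list genes are not reported here. The members, the lists and the rules were chosen with earlier results of these data known. Figures were drawn with matplotlib 3.10.9.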

Additional observations from a re-analysis of the deposited data

Results flagged for a closer look

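Within the groups of 4 libraries, 30 sets of member values were searched for a single library far from the others, and 2 were found. Chance flags about 1 in 20 such sets. Rel measured 332 in Treg WT 2, while the other 3 Treg WT libraries lay between 304 and 308. Relb measured 439 in Treg WT 3, while the other 3 lay between 491 and 499. Without Treg WT 2 the Rel difference between KO and WT in Treg was 0.40 with an adjusted p of 0.051 (limma). Without Treg WT 3 the Relb difference between Treg and Tconv in WT was 0.68 with an adjusted p of 0.056.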

How the results depend on the processing

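Of 17 member differences that passed, 0 changed sign and 12 passed under every alternative. The other 5 lost the call under 1 or more alternatives (Rel, Nfkbia and Tnfaip3 in Treg KO against WT, Relb and Nfkb2 in Treg against Tconv of WT). The count of members higher in Treg KO was 3. It was 5 with the GC trend removed, 1 in a fit of only the groups compared, 0 without both Treg KO 1 and Treg KO 3 (added after seeing the data), and 1 to 3 without single libraries. It was 1 without Treg WT 1 or Treg WT 4. Of all genes, 21.5% were called higher or lower in the main fit. The share was 13.6% with the GC trend removed, 14.4% with only the groups compared and 8.41% without both libraries. Without single libraries it ran from 12.3% to 24.2%. The Rel call was also lost with thinned reads (adjusted p = 0.062) and with only the groups compared (0.055), where Nfkbia was at 0.066. Relb in WT was at 0.055 with no filter and 0.074 with thinned reads. Between the cell types with the GC trend removed, Nfkbie passed in WT (0.045), and in KO Rela (0.028), Relb (0.0030) and Nfkbib (0.031) passed as well, so all 10 members were higher there. Of 11221 genes 2023 were then called higher and 1948 lower in KO, 35.4% in all. In WT 1336 were called higher and 1154 lower, 22.2% in all.

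Signs changed only among differences that had not passed, 47 of 970 values. With the GC trend removed the log2 differences were 0.29 (Rela), 0.25 (Relb) and 0.25 (Nfkbib) in Treg KO against WT. They were 0.0049 (Nfkb1), 0.14 (Nfkb2) and -0.0051 (Nfkbiz) in Tconv KO against WT, 0.16 (Rela) in Treg against Tconv of KO, and 0.10 (Rela) and 0.046 (Relb) for the interaction. Without both Treg KO libraries they were 0.026 (Rela) and 0.021 (Nfkbib) in Treg KO against WT, 0.099 (Rela) between the cell types in KO and 0.018 (Rela) for the interaction. In Tconv KO against WT, edgeR gave -0.00355 (Relb), DESeq2 -0.0019 (Nfkbiz), thinned reads -0.058 (Relb) and 0.024 (Nfkb1), and the random block 0.00059 (Nfkb1) and -0.00093 (Nfkbiz). For Rela between the cell types in KO, edgeR gave 0.00469 and DESeq2 0.016.

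Leaving out single libraries gave sign changes within these ranges. In Treg KO against WT they were -0.15 to 0.056 (Rela), -0.33 to 0.0399 (Relb), -0.021 to 0.089 (Nfkb1), -0.062 to 0.40 (Nfkb2) and -0.32 to 0.098 (Nfkbib). In Tconv KO against WT they were -0.0196 to 0.029 (Rela), -0.12 to 0.18 (Relb), -0.045 to 0.034 (Nfkb1), -0.19 to 0.10 (Nfkb2) and -0.094 to 0.055 (Nfkbiz). Between the cell types they were -0.18 to 0.078 for Nfkbib in WT and -0.081 to 0.13 for Rela in KO. For the interaction they were -0.16 to 0.048 (Rela), -0.35 to 0.0205 (Relb), -0.014 to 0.096 (Nfkb1) and -0.0090 to 0.46 (Nfkb2). The cause was not tested.

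Over all genes the calls were 2431 in Treg KO against WT (952 to 2779 over the alternatives), 77 in Tconv KO against WT (22 to 236), 2046 and 3558 between the cell types in WT and KO (1407 to 3990 and 2042 to 4560), and 17 for the interaction (3 to 91). On the recovered reads edgeR called 2444, 93, 2326, 3462 and 17 genes in the same order. No paired analysis was possible because the labels give no replicate numbers shared between the groups. Adjacent sample numbers, which the labels do not explain, were entered as a random block instead, and the 1 member call this changed was Relb between the cell types in KO, which passed (adjusted p = 0.029). Depth limits Nfkbib most, at 50 reads in Treg KO 3. Sex, genotype and the sample number series cannot be told apart.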
